A study of Danio rerio with 12 samples.

Results

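Gene expression in zebrafish skeletal muscle was compared between 2 times after a meal that ended a fast. The 4 fish of Refed_8h, sampled 8 h after food was given back, were set against the 4 fish of Refed_3h, sampled at 3 h. These 8 libraries were taken by their titles from a series of 12, and the other 4 came from fish at the end of the fast (Fast). All fish were wild type, with strain given as not applicable and an age label of 2 to 3 months, which is younger than the purchase and acclimation times in the study's methods imply. They were kept in tanks of both sexes on the same commercial food and starved for 24 h before refeeding, so every refed fish had also been fasted, and no fish without a fast was analysed here. Each group held both sexes in equal number, and the sex of each single fish is not stated. The groups were killed at different hours of the day, so hours since the meal and time of day cannot be told apart in any result that follows.

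Skeletal muscle switches fuel and protein turnover with feeding. In the fasted state low insulin lets FoxO transcription factors enter the nucleus. There they drive autophagy genes and ubiquitin ligases that mark muscle protein for the proteasome. They also drive kinases that turn off the enzyme feeding pyruvate into the citric acid cycle. Food brings insulin and amino acids, which switch on the mTORC1 kinase, ribosome production and chaperones for newly made protein. Muscle also carries its own circadian clock, a loop in which CLOCK and BMAL proteins activate genes for their own repressors (period, cryptochrome and REV-ERB families). In bulk tissue, fewer cells of a type and less RNA per cell cannot be told apart.

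Transcripts of fast muscle dominated both groups. The 27 fast muscle markers summed to 145500.0–191800.0 TPM (transcripts per 1e6, a level relative to exon length and library) in Refed_3h and 146000.0–185600.0 TPM in Refed_8h, led by the parvalbumin pvalb3 (36840.0 and 34630.0 TPM on average). Skin transcripts were present too, with keratins such as krt5 at 4509–7426 and 3786–7668 TPM. Counts assigned to genes summed to 15037143 to 17467497 per library in Refed_3h and 15211830 to 18446239 in Refed_8h. Between 12.7% and 17.4% of them in Refed_3h, and 11.9% to 15.1% in Refed_8h, fell on 13 mitochondrial genes.

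Of 16745 genes with enough counts to test, 284 were higher and 182 lower in Refed_8h by at least 2-fold at a Benjamini-Hochberg adjusted p under 0.05 (edgeR quasi-likelihood test, 4 fish against 4). These DEGs (differentially expressed genes) make up 1.70% and 1.09% of the tested genes. Without the fold threshold 512 genes (3.06%) were higher and 562 (3.36%) lower, and this looser call, named passing the test here, is used to count the members of gene lists. The scaling of the libraries moved the balance. With TMM scaling (trimmed mean of M-values, which assumes that most genes do not change) 60.9% of the DEGs were higher and the median over all tested genes was a log2 fold change of 0.01. Scaled to library totals alone, the median rose to 0.21 and the DEGs split into 480 higher and 97 lower (83.2% higher). With limma on log2(TPM + 1) of the deposited TPM, that median was 0.18 and the split was 194 to 46 (80.8% higher). All log2 fold changes below are on the TMM scale unless another is named.

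The number of calls moved with the library left out. Higher DEGs fell to 163, 168, 179 and 176 when Refed_3h replicates 1, 2, 3 and 4 were left out in turn, and to 172 and 154 without Refed_8h replicates 1 and 4. They numbered 249 and 321 without Refed_8h replicates 2 and 3. Lower DEGs numbered 126 to 186 over the same 8 fits, called leave-one-out fits here. The plot of fold change against mean level shows where the leading genes lie among all those tested. The genes named in it were chosen to have no overlap between groups in TPM. Their lack of overlap, here and below, is therefore not a separate result. In all, 2310 genes had no overlap in TPM, so lack of overlap in other genes is a description and no test.

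**Figure D1:**
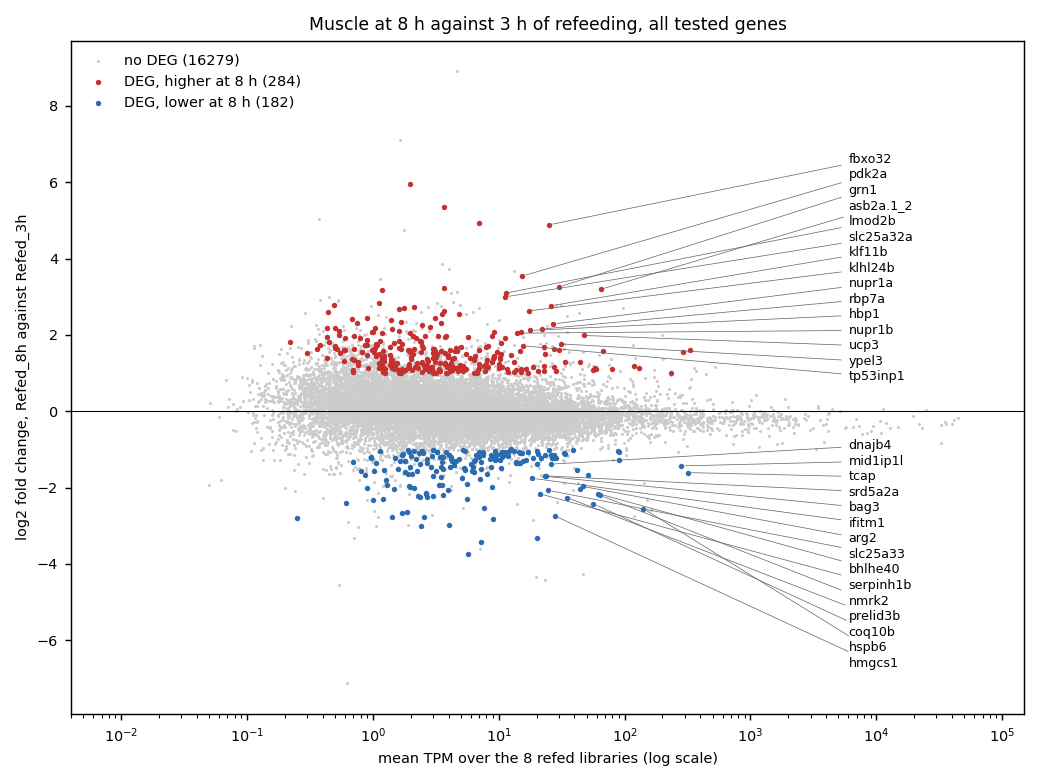
Change and level of the 16745 tested genes. The horizontal axis is the mean TPM over the 8 refed libraries (log scale) and the vertical axis the log2 fold change of Refed_8h against Refed_3h; each point is a gene, grey where it was no DEG, red for the 284 DEGs higher and blue for the 182 lower at 8 h. The named genes are the 15 higher and 15 lower DEGs that changed most among those averaging 10 TPM or more. Only DEGs without overlap between groups and without a clone name were taken, and fbxo32 stands highest among them at 4.88.

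Among DEGs averaging at least 10 TPM over the refed fish, without overlap between groups or a clone name, fbxo32 rose most (ENSDARG00000040277, chromosome 16, 25259313 to 25272633 on GRCz11). It encodes atrogin-1, the F-box subunit of a ubiquitin ligase that is induced when muscle wastes. fbxo32 stood at 1.06, 1.95, 1.56 and 0.894 TPM in the 4 Refed_3h fish and at 30.6, 11, 42 and 112 TPM in the 4 Refed_8h fish. No 3 h fish came near any 8 h fish, but the 8 h fish differed widely, with replicate 4 highest and replicate 2 lowest (log2 fold change 4.88, standard error 0.75, adjusted p = 0.0047). Without Refed_8h replicate 4 the log2 fold change was 4.13. At 49 ± 44.2 TPM (SD, n = 4) the 8 h level was close in mean to that of Fast, 48.4 ± 23.2 TPM. A second F-box gene, fbxo25, rose from 4.37 ± 1.71 to 14.1 ± 3.1 TPM (SD, n = 4; log2 fold change 1.42, adjusted p = 0.0051), without overlap. Of the 25 tested genes listed as atrophy ubiquitin ligases, 3 rose (12.0%, against 3.06% of all tested genes) and 0 fell, and their median log2 fold change was 0.15. The third, fbxo21, had an adjusted p of 0.042 (kept only without Refed_8h replicate 2, adjusted p of 0.050 to 0.14 in the other 7 leave-one-out fits). The MuRF1 genes trim63a and trim63b, RING ligases that act beside atrogin-1 and were named after their values were seen, had log2 fold changes of 1.39 and 0.86 that did not pass (adjusted p = 0.18 and 0.089). For trim63b the 3 h fish lay at 44.1–59.4 TPM and the 8 h fish at 92.1–118 TPM, a lack of overlap found in 2310 genes in all.

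Several adaptors of cullin ubiquitin ligases also rose. klhl38b (ENSDARG00000040278, chromosome 16, 25245857 to 25250414), a Kelch-like adaptor abundant in muscle, was barely detected at 3 h, with 0.0991, 0.0883, 0.365 and 0.0416 TPM, and reached 4.55, 2.64, 8.49 and 13 TPM at 8 h (log2 fold change 5.36, standard error 1.00, adjusted p = 0.012, and 6.19 without Refed_3h replicate 3). klhl24b (ENSDARG00000008275, chromosome 24, 25760986 to 25788841) had little spread within groups. Its 4 Refed_3h fish lay at 3.65, 4.72, 4.1 and 3.95 TPM and its 4 Refed_8h fish at 35.1, 19.7, 32 and 35.3 TPM (log2 fold change 2.63, standard error 0.17, adjusted p = 1.1e-05). In Fast it had stood at 31.7 ± 8.5 TPM (SD, n = 4). Among 53 tested Kelch-like and BTB adaptors, 6 rose and 1 fell (13.2%, against 6.41% of all tested genes), and the list's median log2 fold change was 0.00. klhl22 also rose, from 1.1–2.13 to 2.73–5.85 TPM, and kept its call in all 8 leave-one-out fits. klhl24a had an adjusted p of 0.040 (kept only without Refed_3h replicate 4 or Refed_8h replicate 2, adjusted p of 0.071 to 0.12 in the other 6 leave-one-out fits), kbtbd3 of 0.017 (lost without Refed_3h replicates 1 or 3 or Refed_8h replicate 4, adjusted p of 0.051 to 0.056) and kbtbd4 of 0.032 (kept only without Refed_3h replicate 3 or Refed_8h replicates 2 or 3, adjusted p of 0.076 to 0.090 in the other 5 leave-one-out fits). btbd11a, the lower gene, had 0.029 (kept only without Refed_3h replicate 2 or Refed_8h replicate 3, adjusted p of 0.060 to 0.082 in the other 6 leave-one-out fits). In the fits without Refed_3h replicate 1 or Refed_8h replicate 4, 3 genes of the list were higher.

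Ankyrin repeat and SOCS-box (ASB) genes encode another class of cullin adaptors, and asb2 is known in mammals to act in muscle. asb15b (ENSDARG00000045863, chromosome 4, 4120570 to 4129187) lay at 0.532, 0.105, 0.124 and 0.645 TPM at 3 h and at 14.8, 7.8, 13.9 and 18.3 TPM at 8 h, every 8 h fish far above every 3 h fish (log2 fold change 4.93, standard error 0.55, adjusted p = 3.2e-04, and 5.52 without Refed_3h replicate 4). Unlike fbxo32, asb15b had been as low in Fast, at 0.47 ± 0.357 TPM (SD, n = 4), and its log2 fold change of Refed_8h against Fast was 4.88 (adjusted p = 3.4e-04). The more abundant asb2a.1_2 (ENSDARG00000096748, chromosome 20, 27316678 to 27330383) rose from 8.01, 8.6, 15 and 11.8 TPM to 104, 96.9, 134 and 141 TPM, also without overlap (log2 fold change 3.20, standard error 0.42, adjusted p = 0.0013). Its Fast level lay between, at 32.1 ± 19.1 TPM (SD, n = 4). Of 21 tested ASB genes 3 rose (14.3%, against 3.06% of all tested genes) and 0 fell, with a median log2 fold change of 0.36. Without asb2a.1_1 and asb2a.1_2, which entered the list after their values were seen, 2 of 19 rose (median 0.36). The third of the 3 was asb15a, at 2.84–4.03 TPM and then 5.7–8.83 TPM, with an adjusted p of 0.036 (kept only without Refed_8h replicate 1, adjusted p of 0.052 to 0.099 in the other 7 leave-one-out fits). By TPM at 8 h, a level per exon length, asb2a.1_2 lay above asb15b in every fish, while the ranges of asb15b and asb15a overlapped.

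**Figure D2:**
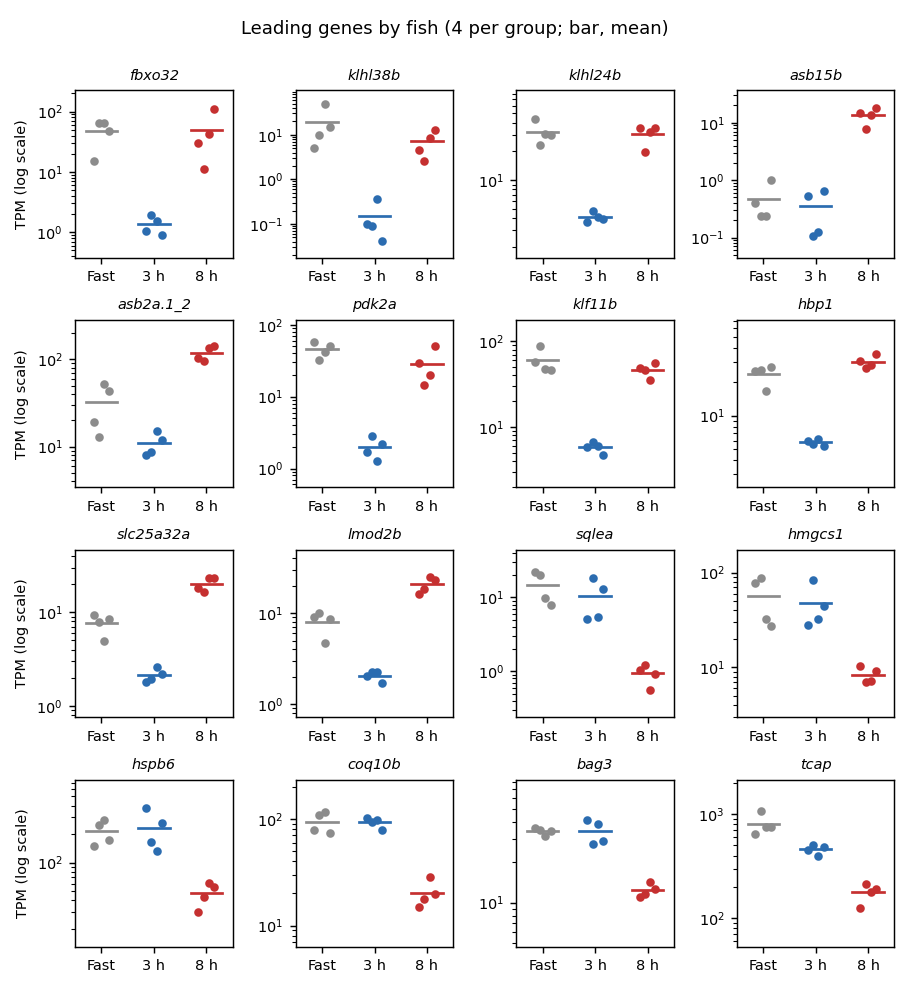
TPM per fish (log scale, 0 drawn at the lower edge) of 16 of the genes with the largest changes, in Fast (grey), Refed_3h (blue) and Refed_8h (red); each point is a fish and each bar the mean of 4. In every panel the red points lie clear of the blue ones, which the naming rule required of most of these genes. For fbxo32 the blue points lie at 0.894–1.95 TPM and the red at 11–112 TPM.

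Several parts of insulin signalling, which acts upstream of the FoxO factors, were higher at 8 h. FoxO factors and insulin signalling had 6 of 44 tested members higher and 1 lower (15.9%, against 6.41% of all tested genes), with a median of 0.07. foxo4, a FoxO transcription factor, lay at 6.75, 7.26, 7.86 and 5.6 TPM at 3 h and 17.4, 14.5, 21.8 and 25.5 TPM at 8 h (log2 fold change 1.28, standard error 0.17, adjusted p = 8.4e-04), without overlap. pik3ip1, an inhibitor of PI3-kinase, rose from 9.71–13.8 TPM to 37.8–52.1 TPM (log2 fold change 1.63, standard error 0.21, adjusted p = 8.2e-04). pdpk1a, the kinase that activates AKT, rose from 1.17–1.73 TPM to 4.39–6.74 TPM (log2 fold change 1.51, adjusted p = 3.5e-04). irs2b, an insulin receptor substrate, rose from 1.86–3.32 TPM to 5.22–6.78 TPM (log2 fold change 1.08, adjusted p = 0.011). Its paralog irs2a had the larger log2 fold change, 2.06, with an adjusted p of 0.023 (lost without Refed_3h replicates 1, 2 or 4 or Refed_8h replicate 4, adjusted p of 0.064 to 0.069). The lipid kinase pik3c2b was higher (log2 fold change 0.63, adjusted p = 0.028, kept only without Refed_3h replicate 3 or Refed_8h replicate 3, adjusted p of 0.061 to 0.083 in the other 6 leave-one-out fits).

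In the list named mTORC1 restraint 16.7% of the members passed, against 6.41% of all tested genes. Of 24 tested, 3 rose (fnip1, sesn3 and castor2) and 1 fell. fnip1, the partner of folliculin in nutrient sensing, lay at 2.13–3.96 TPM and 4.77–7.06 TPM (log2 fold change 0.67, adjusted p = 0.013). The gene that fell was rps6kb1b, the S6 kinase that mTORC1 activates, from 14.5–22.3 to 10.8–12.6 TPM (log2 fold change -0.80, adjusted p = 0.0049), which acts downstream of mTORC1 and does not restrain it. sesn3, of the sestrin family, had an adjusted p of 0.018 (lost without Refed_3h replicates 1 or 3, adjusted p of 0.053 to 0.059). castor2, of the CASTOR family of arginine sensors, had an adjusted p of 0.030 (kept only without Refed_3h replicate 2 or Refed_8h replicate 1, adjusted p of 0.059 to 0.091 in the other 6 leave-one-out fits). None of 12 tested IGF ligands and binding proteins passed the edgeR test, 1 being higher and 1 lower at an unadjusted p under 0.05, and none passed in DESeq2. The most abundant, igfbp5b, lay at 62.3–80.4 and 74–96 TPM. Of 46 genes of the myostatin and activin pathway only smad1, a BMP effector, passed (adjusted p = 0.043, kept only without Refed_8h replicate 1, adjusted p of 0.074 to 0.11 in the other 7 leave-one-out fits). That is 2.17% of the list, against 6.41% of all tested genes. By sign 33 of the 46 lay above 0 (median 0.10), with 6 higher and 0 lower at an unadjusted p under 0.05.

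Fuel choice genes held a large change in a pyruvate dehydrogenase kinase. pdk2a (ENSDARG00000020876, chromosome 12, 28559408 to 28570989) encodes a pyruvate dehydrogenase kinase, which turns off the enzyme that feeds pyruvate into the citric acid cycle. It lay at 1.7, 2.88, 1.29 and 2.17 TPM at 3 h and at 29.3, 14.5, 20.2 and 51.5 TPM at 8 h, replicate 4 being highest (log2 fold change 3.54, standard error 0.34, adjusted p = 1.7e-04). Its Fast level was 45.8 ± 11.2 TPM (SD, n = 4). The paralog pdk2b, which stood at 71.7, 250.2, 218 and 39.1 TPM in the Fast fish, overlapped between the refed groups, at 2.5, 5.77, 1.53 and 5.01 TPM and 10.3, 4.49, 4.59 and 28.2 TPM, and did not pass (log2 fold change 1.35, adjusted p = 0.34). Of 16 tested genes of the pyruvate dehydrogenase complex and its kinases, only pdk2a passed (6.25%, near the 6.41% of all tested genes), and the list's median was -0.24. ucp3, a mitochondrial carrier of the uncoupling protein family that rises in muscle when fat is burned, went from 14.8, 11.9, 28.1 and 11.8 TPM to 72, 79.5, 48.3 and 111 TPM without overlap (log2 fold change 1.99, standard error 0.39, adjusted p = 0.012). angptl4, the secreted inhibitor of lipoprotein lipase, rose from 11.7–14.4 TPM to 38.2–55.5 TPM (log2 fold change 1.61, adjusted p = 0.0052). rxrgb, a retinoid X receptor, rose from 1.28–1.69 TPM to 3.99–5.66 TPM (log2 fold change 1.39, adjusted p = 0.0013).

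The list of PPAR, PGC-1 and uncoupling protein genes went both ways. esrra, the oestrogen-related receptor alpha, fell from 4.49 ± 1.45 to 1.86 ± 0.50 TPM (SD, n = 4; log2 fold change -1.55, adjusted p = 0.011), and pprc1, a coactivator of the PGC-1 family, from 2.79 ± 0.913 to 1.19 ± 0.372 TPM (log2 fold change -1.45, adjusted p = 0.0081). With ucp3 and rxrgb higher, the PPAR, PGC-1 and uncoupling protein list had 2 higher and 2 lower of 22 (18.2%, against 6.41% of all tested genes). Both counts were the same in all 8 leave-one-out fits. Nuclear genes of oxidative phosphorylation had 91 of 95 log2 fold changes below 0 and a median of -0.32, of which only the assembly factor ndufaf4 passed (log2 fold change -1.17, adjusted p = 0.0059). All 13 mitochondrially encoded genes were below 0 too (median -0.39), none passing in edgeR or DESeq2 and 3 being lower at an unadjusted p under 0.05. On library totals these medians were -0.13 and -0.20, where the median of all genes was 0.21. Muscle markers lay to the same side, 24 of 26 fast muscle markers and 14 of 17 slow muscle markers being below 0 (medians -0.37 and -0.28), and their part in these results was not tested. mt-co1, a subunit of cytochrome c oxidase and the most abundant mitochondrially encoded gene, lay at 34810.0–48990.0 TPM and 37820.0–51430.0 TPM.

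More genes of mitochondrial function stood among the largest changes. coq10b (ENSDARG00000056141, chromosome 9, 32178050 to 32188445), a coenzyme Q binding protein, fell from 103, 93.9, 97.1 and 78.3 TPM to 14.9, 17.6, 28.5 and 19.6 TPM (log2 fold change -2.42, standard error 0.26, adjusted p = 2.4e-04). prelid3b, a carrier of phospholipid between mitochondrial membranes, fell from 72.2, 49.1, 55.9 and 45.9 TPM to 15.4, 9.12, 17.1 and 14 TPM (log2 fold change -2.26, standard error 0.19, adjusted p = 3.9e-05). In both genes the highest 8 h fish lay below the lowest 3 h fish by a wide margin. slc25a33, a mitochondrial pyrimidine nucleotide carrier, fell from 35.1–45.5 to 6.95–16.6 TPM (log2 fold change -2.07, adjusted p = 3.1e-04). nmrk2, the muscle nicotinamide riboside kinase, fell from 74.3–163 to 16.2–40.6 TPM (log2 fold change -2.20, adjusted p = 0.0013). slc25a32a (ENSDARG00000089791, chromosome 19, 12937066 to 12967986), a mitochondrial carrier of folate and FAD, went up instead, from 1.78, 1.93, 2.63 and 2.21 TPM to 18.3, 16.4, 23.3 and 23.3 TPM (log2 fold change 3.00, standard error 0.22, adjusted p = 2.9e-05). A mitochondrial folate enzyme, mthfd2, fell at the same time from 33–43.2 to 15.6–24.6 TPM (log2 fold change -1.23, adjusted p = 0.0037). slc25a32a and mthfd2 were the members that passed among 27 serine and one-carbon genes (7.41%, near the 6.41% of all tested genes).

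A few genes of glucose handling were lower at 8 h. In all, 6 of 70 tested genes of glycolysis, glycogen and lactate fell and 0 rose (median -0.33, and -0.14 on library totals). Thus 8.57% of that list was lower, against 3.36% of all tested genes. The hexokinases hk1 and hk2, which trap glucose in the cell, fell from 35.3 ± 6.37 to 21.5 ± 1.01 TPM and from 12.8 ± 2.99 to 8.23 ± 1.57 TPM (SD, n = 4, adjusted p = 0.0061 and 0.0036). The groups overlapped for hk2, at 9.855–16.8 and 6.452–10.25 TPM, and its call was lost on log2(TPM + 1) (limma adjusted p = 0.10). slc16a3, the lactate exporter MCT4, fell from 43.3–66.8 to 28.1–40.3 TPM (log2 fold change -0.95, adjusted p = 0.017). Its call was lost without Refed_3h replicate 1, adjusted p = 0.052. The call of pgam2, the muscle phosphoglycerate mutase (adjusted p = 0.042), was kept only without Refed_8h replicate 3, adjusted p of 0.072 to 0.11 in the other 7 leave-one-out fits. Those of the glycogen-targeting subunits ppp1r3ab (adjusted p = 0.020, lost without Refed_3h replicates 1 or 3 or Refed_8h replicate 1, adjusted p of 0.052 to 0.055) and ppp1r3aa (adjusted p = 0.039, kept only without Refed_3h replicate 2 or Refed_8h replicate 3, adjusted p of 0.053 to 0.10 in the other 6 leave-one-out fits) were no firmer. Without Refed_3h replicate 1 the list had 2 lower genes. The fast and slow muscle markers, with medians of -0.37 and -0.28, lay on the same side, and their part was not tested. Of 48 genes of fatty acid oxidation 3 were lower, among them the thioesterases acot13 and acot18 (adjusted p = 0.025 and 0.025), and none was without Refed_3h replicates 3 or 4 or Refed_8h replicates 1, 3 or 4. The share that passed, 6.25%, was near the 6.41% of all tested genes. The median of that list was -0.07 and changed sign to 0.11 on library totals. It was 0.18 within replicates 1 and 2 and -0.41 within replicates 3 and 4.

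Several enzymes of cholesterol synthesis fell steeply. sqlea (ENSDARG00000079946, chromosome 16, 43401005 to 43413293), squalene epoxidase, lay at 5.1, 18.5, 5.42 and 13.1 TPM at 3 h and at 1.05, 1.22, 0.566 and 0.906 TPM at 8 h (log2 fold change -3.74, standard error 0.52, adjusted p = 0.0021). The 3 h fish were spread over a wide range, replicates 2 and 4 being highest, and all lay above the 8 h fish. hmgcs1 (ENSDARG00000103025, chromosome 10, 6010570 to 6034397), HMG-CoA synthase, lay at 28.3, 84.2, 32.1 and 44.5 TPM and then at 10.3, 7.05, 7.12 and 9.15 TPM (log2 fold change -2.74, standard error 0.42, adjusted p = 0.0034). hmgcra, HMG-CoA reductase, the rate-limiting enzyme of the pathway, fell from 5.23, 12.4, 3.5 and 6.77 TPM to 1.41, 0.878, 0.701 and 1.2 TPM (log2 fold change -2.99, standard error 0.40, adjusted p = 0.0013). In all 3 enzymes Refed_3h replicate 2 was the highest fish. Of 40 tested genes of sterol synthesis, uptake and export 8 fell and 1 rose (22.5%, against 6.41% of all tested genes), with a median log2 fold change of -0.48 (-0.29 on library totals). The gene that rose was abca1a, named after its values were seen, which exports cholesterol from the cell rather than making it, from 2.65 ± 0.484 to 7.27 ± 1.12 TPM (SD, n = 4; log2 fold change 1.22, adjusted p = 0.0010). Enzymes of the later steps were lower with less certainty. lss had an adjusted p of 0.019 (lost without Refed_3h replicate 2 or Refed_8h replicates 1 or 4, adjusted p of 0.050 to 0.068) and ebp of 0.046 (lost in all 8 leave-one-out fits, adjusted p of 0.057 to 0.12). The list had 3 lower genes without Refed_3h replicate 2 or without Refed_8h replicate 4.

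Fatty acid synthesis had 3 of 40 genes lower and 1 higher, 10.0% in all against 6.41% of all tested genes. mid1ip1l, which promotes polymerisation of acetyl-CoA carboxylase, was the most abundant of those that changed, at 417, 324, 486 and 349.7 TPM at 3 h and 113, 105, 264 and 206 TPM at 8 h. The groups did not overlap, and the level in Fast had been 71.7 ± 33.8 TPM (SD, n = 4). Its call (log2 fold change -1.43, adjusted p = 0.040) was kept only without Refed_8h replicate 3, adjusted p of 0.054 to 0.094 in the other 7 leave-one-out fits. gpam, the first enzyme of triglyceride synthesis, fell from 10.1–16.7 to 6.56–9.91 TPM (log2 fold change -1.07, adjusted p = 0.015, lost without Refed_8h replicate 4, adjusted p = 0.056). fasn, fatty acid synthase, had a log2 fold change of -0.73 (adjusted p = 0.037, kept only without Refed_8h replicate 3, adjusted p of 0.066 to 0.11 in the other 7 leave-one-out fits). Without Refed_8h replicate 4, 0 genes of the list were lower. elovl5, an elongase of polyunsaturated fatty acids, rose from 0.638–0.716 to 1.5–2.89 TPM (log2 fold change 1.36, adjusted p = 0.0073) and passed in all 8. The list's median was -0.16, and changed sign to 0.06 on library totals. The acyl-CoA synthetase acsl3b was lower (log2 fold change -0.90, adjusted p = 0.0050), and so was acsl1a (adjusted p = 0.050, kept only without Refed_3h replicate 2, adjusted p of 0.071 to 0.13 in the other 7 leave-one-out fits). The groups overlapped for acsl3b, at 4.794–6.649 and 3.181–5.16 TPM, and its call was lost on log2(TPM + 1) (limma adjusted p = 0.098).

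**Figure D3:**
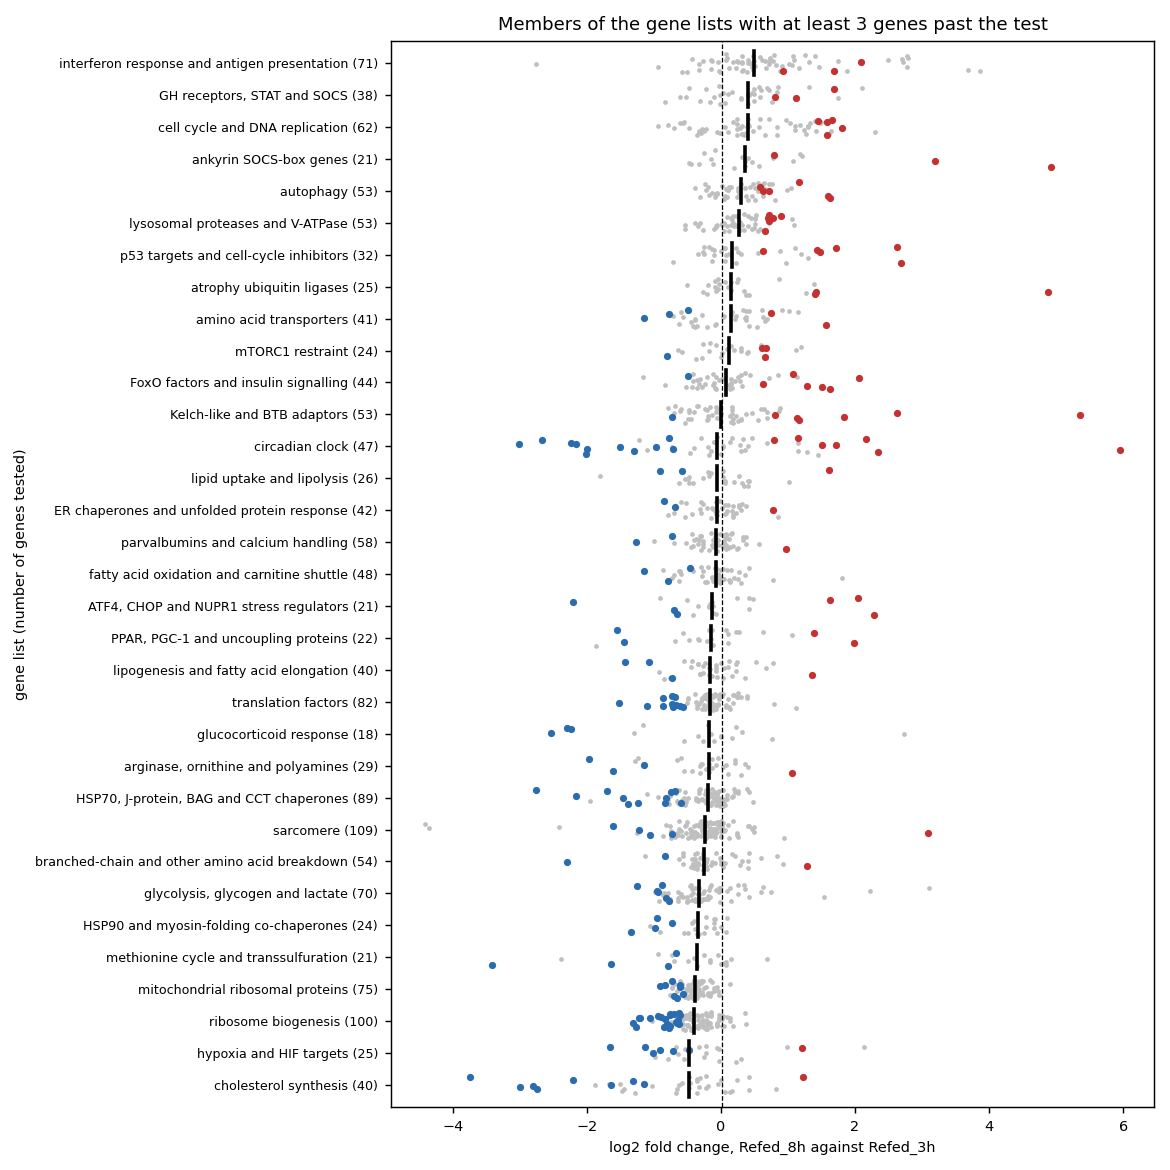
Log2 fold change of Refed_8h against Refed_3h for every tested member of the process lists with at least 3 genes past the test; each point is a gene, red where it rose, blue where it fell and grey where it did not pass, and the black bar is the list's median. The dashed line marks the median of all genes, 0.01; the medians run from -0.48 for cholesterol synthesis to 0.49 for interferon response and antigen presentation.

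Many genes of ribosome production were lower. Ribosome biogenesis factors had 22 of 100 members lower and 0 higher, where 3.36% of all tested genes were lower, and 88 of the 100 lay below 0 (median -0.39, -0.20 on library totals). dkc1, dyskerin, the pseudouridine synthase of ribosomal RNA, fell from 22.5 ± 7.7 to 10.7 ± 0.304 TPM (SD, n = 4; log2 fold change -1.27, adjusted p = 0.0049). nop58, a core protein of box C/D small nucleolar particles, fell from 36.9 ± 11.4 to 18.6 ± 3.56 TPM (log2 fold change -1.22, adjusted p = 0.0051). rrs1, nolc1 and nop2, factors of ribosome assembly, had log2 fold changes of -1.21, -1.05 and -0.94, and all 5 genes passed in every leave-one-out fit. In limma on log2(TPM + 1) the calls of nolc1 and nop2 were lost (adjusted p = 0.064 and 0.069). exosc6, an exosome subunit, had an adjusted p of 0.018 (lost without Refed_8h replicate 4, adjusted p = 0.061). The number of lower genes of the list ran from 12 without Refed_8h replicate 4 to 23 without Refed_8h replicate 3, with 7 on library totals and 4 on log2(TPM + 1).

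The ribosome itself moved less. None of 85 cytosolic ribosomal protein genes passed in edgeR or DESeq2, and 1 was lower at an unadjusted p under 0.05. rplp0, the most abundant, lay at 2513–3245 and 2746–3333 TPM. Among 75 mitochondrial ribosomal protein genes 8 fell (10.7%, against 3.36% of all tested genes) and 0 rose, and 74 lay below 0 (median -0.39, -0.20 on library totals). mrpl54 fell from 36.2–48.9 to 25.4–30.4 TPM and mrpl48 from 26.9–39.1 to 21.6–25 TPM (adjusted p = 0.0056 and 0.0055). The number lower in this list was 11 without Refed_8h replicate 2 but only 2 to 4 in the other leave-one-out fits, with 2 without Refed_3h replicate 3 or Refed_8h replicates 1 or 4. Mitochondrial ribosomal proteins shared the direction of fast muscle markers (median -0.37), whose part was not tested. Translation factors had 11 of 82 lower (13.4%, against 3.36% of all tested genes) and 0 higher. On library totals 3 were lower, and on log2(TPM + 1) 2. eif4a1a, the RNA helicase of cap-dependent initiation, fell from 63.2, 78.5, 59.5 and 37.7 TPM to 38.4, 19.9, 17.3 and 23.1 TPM, with Refed_8h replicate 1 above Refed_3h replicate 4 (log2 fold change -1.53, standard error 0.24, adjusted p = 0.0035). The cap-binding proteins eif4e1c and eif4ea, the release factor etf1b, eif4g2a and eif1axa also fell, eif1axa by 0.73 and eif4e1c by 1.1 on the log2 scale. The calls of eif4ea, eif4g2a and eif1axa were lost on library totals and in limma, and that of etf1b on log2(TPM + 1). The list had a median of -0.16, which changed sign to 0.03 on library totals.

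Several protein folding genes fell too. hspb6 (ENSDARG00000077236, chromosome 15, 37559570 to 37562582), a small heat shock protein of muscle, lay at 377, 165, 134 and 261 TPM at 3 h and at 30.4, 43.8, 61.2 and 55.8 TPM at 8 h (log2 fold change -2.55, standard error 0.41, adjusted p = 0.0040). Every 8 h fish was below every 3 h fish, and Fast had been at 214 ± 63.9 TPM (SD, n = 4). bag3 (ENSDARG00000039486, chromosome 13, 25486608 to 25498661), the co-chaperone that steers damaged sarcomere proteins to autophagy, fell from 41.5, 27.2, 38.9 and 28.9 TPM to 11, 11.5, 14.2 and 12.7 TPM (log2 fold change -1.70, standard error 0.18, adjusted p = 2.2e-04). hsp70l, a heat-inducible HSP70, fell from 1.71–7.47 to 0.577–0.942 TPM (log2 fold change -2.77, adjusted p = 0.0015), and the J-proteins dnajb4 and dnaja1 from 36.2 ± 3.57 to 16.1 ± 2.39 TPM and from 4.91 ± 0.705 to 2.11 ± 0.385 TPM (SD, n = 4). Of 89 HSP70, J-protein, BAG and CCT genes 11 fell and 0 rose, and of 24 HSP90 genes and co-chaperones 4 fell and 0 rose. These are 12.4% and 16.7% of the lists, where 3.36% of all tested genes were lower. The HSP90 co-chaperones ahsa1a, ahsa1b and ptges3a had log2 fold changes of -0.95, -0.99 and -0.72. The call of ahsa1b was lost on log2(TPM + 1) (limma adjusted p = 0.055). hspa4a, an HSP110 family member, fell from 17.5–34.9 to 12.7–17 TPM (log2 fold change -1.23, adjusted p = 0.0013). hsp70.2 (adjusted p = 0.043, kept only without Refed_3h replicate 3 or Refed_8h replicate 4, adjusted p of 0.064 to 0.11 in the other 6 leave-one-out fits, with a log2 fold change of -2.16 that was -2.97 without Refed_8h replicate 4) and hsp90aa1.2 (adjusted p = 0.021, lost without Refed_3h replicates 1 or 2 or Refed_8h replicate 1, adjusted p of 0.054 to 0.061) have close copies with which reads may be shared. The HSP70 list had 6 lower genes without Refed_3h replicate 1 and 5 on library totals, where its median went from -0.20 to 0.01. serpinh1b, the collagen chaperone HSP47, fell from 41.6, 46.5, 23.9 and 23.5 TPM to 10.2, 12, 7.48 and 5.22 TPM (log2 fold change -2.17, standard error 0.30, adjusted p = 0.0013), and none of 48 collagen genes passed in edgeR (1 higher and 2 lower at an unadjusted p under 0.05) or in DESeq2. Of 42 genes of the endoplasmic reticulum, herpud1, which acts in the degradation of misfolded protein, rose (log2 fold change 0.78, adjusted p = 0.0039), and the chaperones hyou1 (adjusted p = 0.025, kept only without Refed_3h replicates 3 or 4 or Refed_8h replicate 1, adjusted p of 0.051 to 0.079 in the other 5 leave-one-out fits) and creld2 (adjusted p = 0.049, lost in all 8 leave-one-out fits, adjusted p of 0.058 to 0.14) were lower. In that list 7.14% passed, near the 6.41% of all tested genes.

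Enzymes of arginine, polyamine and methionine metabolism were among the lower genes. arg2, the mitochondrial arginase, fell from 87.8, 53.5, 84.7 and 61 TPM to 14.2, 29.6, 27.4 and 12.5 TPM (log2 fold change -1.97, standard error 0.35, adjusted p = 0.0068), and srm, spermidine synthase, from 9.81 ± 2.5 to 5.2 ± 1.53 TPM (SD, n = 4; log2 fold change -1.15, adjusted p = 0.0049). odc1, the rate-limiting enzyme of polyamine synthesis, fell from 9.14 ± 3.38 to 3.52 ± 1.46 TPM (log2 fold change -1.60, adjusted p = 0.021, lost without Refed_3h replicates 2 or 3 or Refed_8h replicate 4, adjusted p of 0.053 to 0.057). smox, which oxidises spermine, rose from 10.9–15.2 to 27–37 TPM (log2 fold change 1.06, adjusted p = 0.015, lost without Refed_3h replicate 1, adjusted p = 0.051). Together 3 of 29 genes of this list fell and 1 rose (13.8%, against 6.41% of all tested genes). Of 21 genes of the methionine cycle and transsulfuration, 4 were lower (19.0%, against 3.36% of all tested genes). cbsa, cystathionine beta-synthase, fell from 1.38–3.83 to 0.718–1.51 TPM with some overlap (log2 fold change -1.63, adjusted p = 0.0086) and passed in every leave-one-out fit. Its call was lost on log2(TPM + 1) (limma adjusted p = 0.054). mat2ab, an S-adenosylmethionine synthetase, lay at 6.27, 33.3, 5.42 and 7.4 TPM at 3 h and 2.11, 1.25, 0.424 and 1.86 TPM at 8 h, Refed_3h replicate 2 standing far above all others (log2 fold change -3.42, adjusted p = 0.021, lost without Refed_8h replicates 1 or 4, adjusted p of 0.056 to 0.064). Without Refed_3h replicate 2 its log2 fold change was -2.51. The others were mat2aa (adjusted p = 0.019, lost without Refed_3h replicate 2 or Refed_8h replicate 4, adjusted p of 0.053 to 0.065) and mtr, methionine synthase (adjusted p = 0.026, kept only without Refed_3h replicate 4 or Refed_8h replicate 2, adjusted p of 0.051 to 0.077 in the other 6 leave-one-out fits). Without Refed_8h replicate 4, 1 gene of this list was lower. tat, tyrosine aminotransferase, fell from 9.79, 9.82, 10.7 and 6.28 TPM to 1.97, 2.42, 2.77 and 1.38 TPM (log2 fold change -2.30, standard error 0.31, adjusted p = 0.0011). ampd3b, AMP deaminase, rose from 20.2–27.7 to 48.7–77.6 TPM (log2 fold change 1.28, adjusted p = 8.4e-04). The cationic amino acid transporters slc7a3b and slc7a2 fell by 1.15 and 0.77 on the log2 scale and passed in all 8 leave-one-out fits. On log2(TPM + 1) neither passed (adjusted p = 0.053 and 0.19), and slc7a2 was lost on library totals too (adjusted p = 0.10). The transporter genes slc3a2a (adjusted p = 0.023, kept only without Refed_3h replicate 4 or Refed_8h replicates 1 or 3, adjusted p of 0.052 to 0.069 in the other 5 leave-one-out fits) and slc43a2a (adjusted p = 0.038, kept only without Refed_3h replicate 4 or Refed_8h replicates 1 or 2, adjusted p of 0.080 to 0.11 in the other 5 leave-one-out fits) were higher and slc38a5b (adjusted p = 0.049, lost in all 8 leave-one-out fits, adjusted p of 0.051 to 0.12) lower, and without Refed_3h replicates 2 or 3 or Refed_8h replicate 4, 0 genes of 41 amino acid transporters were higher. With all fish 12.2% of the transporters passed, against 6.41% of all tested genes.

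Several genes that stop the cell cycle or respond to p53 rose. The list had 6 of 32 tested members higher (18.8%, against 3.06% of all tested genes) and 0 lower, and 6 or 7 were higher in each leave-one-out fit. cdkn1a (ENSDARG00000076554, chromosome 22, 603382 to 607812), the p21 inhibitor of cyclin-dependent kinases, lay at 0.68, 1.21, 1.34 and 0.357 TPM at 3 h and 8.16, 4.36, 5.83 and 7.71 TPM at 8 h (log2 fold change 2.62, standard error 0.31, adjusted p = 4.5e-04). bbc3 (PUMA) and pmaip1 (NOXA), which promote apoptosis, rose from 0.373 ± 0.214 to 2.85 ± 1.28 TPM and from 5.81 ± 1.71 to 19.4 ± 7.05 TPM (SD, n = 4; adjusted p = 0.0037 and 0.0080). tp53inp1, a stress protein that also acts in autophagy, rose from 6.92, 4.31, 9.15 and 5.1 TPM to 23.9, 25.8, 21.6 and 27.1 TPM (log2 fold change 1.72, standard error 0.21, adjusted p = 4.5e-04). ccng2, an atypical cyclin that is a FoxO target in mammals, rose from 4.36–5.59 to 13.7–17.9 TPM (log2 fold change 1.43, adjusted p = 2.8e-04), and cdkn1bb, a p27 gene, from 11.9–15 to 21.9–26.9 TPM (log2 fold change 0.63, adjusted p = 0.010). hbp1 (ENSDARG00000028517, chromosome 25, 3449959 to 3470910), a repressor of cell-cycle genes, lay at 5.97, 5.54, 6.22 and 5.42 TPM and then 30.4, 26.4, 27.9 and 35.4 TPM, with little spread in either group (log2 fold change 2.12, standard error 0.17, adjusted p = 3.9e-05). ypel3, a growth suppressor that is induced by p53 in mammals, rose from 10.9–15 to 41.6–59.3 TPM (log2 fold change 1.76, adjusted p = 3.1e-05). All of these genes stood higher in Fast than in Refed_3h on average, hbp1 at 23.5 ± 4.71 TPM and ypel3 at 23.7 ± 4.33 TPM (SD, n = 4).

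Stress-responsive regulators of transcription split. nupr1a (ENSDARG00000094300, chromosome 5, 1997765 to 1999488) and nupr1b, small chromatin proteins induced by stress, rose from 9.56, 9.22, 7.03 and 6.16 TPM to 50.1, 37.2, 43.3 and 55.1 TPM (log2 fold change 2.29, standard error 0.18, adjusted p = 3.1e-05) and from 3.36–5.31 to 19.5–31.2 TPM (log2 fold change 2.05, adjusted p = 0.0025). klf11b (ENSDARG00000013794, chromosome 17, 32365941 to 32370047), a Kruppel-like transcription factor, rose from 5.82, 6.69, 5.96 and 4.66 TPM to 48.8, 46.5, 35.6 and 55.2 TPM (log2 fold change 2.77, standard error 0.24, adjusted p = 4.8e-05). Its Fast level was 59.7 ± 19.6 TPM (SD, n = 4). The pseudokinase trib2 fell from 4.26–5.79 to 1.08–1.43 TPM (log2 fold change -2.21, adjusted p = 1.8e-04). The list of ATF4, CHOP and NUPR1 stress regulators had 3 higher and 3 lower of 21 (28.6%, against 6.41% of all tested genes). Its kinase eif2ak2 was higher (adjusted p = 0.043, lost in all 8 leave-one-out fits, adjusted p of 0.054 to 0.12). The kinase eif2ak1 (adjusted p = 0.014, lost without Refed_8h replicate 4, adjusted p = 0.056) and the glutathione-degrading enzyme chac1 (adjusted p = 0.035, kept only without Refed_3h replicates 2 or 3 or Refed_8h replicate 3, adjusted p of 0.051 to 0.096 in the other 5 leave-one-out fits) were lower. klf1, an erythroid Kruppel-like factor, was lower too (adjusted p = 0.045, kept only without Refed_3h replicates 1 or 4 or Refed_8h replicate 3, adjusted p of 0.090 to 0.13 in the other 5 leave-one-out fits). All 14 erythrocyte markers lay below 0 too (median -0.70), and their part in it was not tested.

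Of the process lists, that of the circadian clock held the largest share of changed genes. In it 7 of 47 clock genes rose and 11 fell, 38.3% in all against 6.41% of the tested genes. Both activators and repressors of the clock rose. nr1d4b (ENSDARG00000059370, chromosome 11, 1944729 to 1967438), of the REV-ERB family, had the largest fold change of the list, from 0.0834, 0.0372, 0.0878 and 0 TPM to 3.2, 2.67, 5.33 and 4.43 TPM (log2 fold change 5.95, standard error 0.61, adjusted p = 1.8e-04), and its 3 h values are close to 0. arntl2, a BMAL gene, rose from 0.369, 0.407, 0.915 and 0.237 TPM to 2.77, 2.78, 1.74 and 4.13 TPM (log2 fold change 2.35, standard error 0.41, adjusted p = 0.0060), and clocka from 0.111–0.20 to 0.719–1.11 TPM (log2 fold change 2.17, adjusted p = 0.011). rorcb rose from 3.34, 2.96, 3.96 and 3.09 TPM to 12.7, 12.7, 14.1 and 12.4 TPM (log2 fold change 1.72, standard error 0.19, adjusted p = 3.1e-04), and nfil3-5 and nfil3, bZIP repressors, from 10.7 ± 1.52 to 36.3 ± 4.76 TPM and from 10.3 ± 1.67 to 27.2 ± 6.57 TPM (SD, n = 4). The cryptochrome cry3b rose from 12.9–16.7 to 21.9–35.5 TPM (log2 fold change 0.79, adjusted p = 0.0098). All 7 rising calls were kept in each leave-one-out fit.

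The genes that fell also held repressors, an activator and output genes. per3 (ENSDARG00000010519, chromosome 11, 39959039 to 40021080) fell from 3.31, 5.68, 4.81 and 3.12 TPM to 0.409, 0.733, 0.636 and 0.623 TPM (log2 fold change -3.01, standard error 0.26, adjusted p = 5.3e-05), and per1b from 3.13–4.66 to 0.565–1.22 TPM (log2 fold change -2.23, adjusted p = 0.0011). bhlhe40 (ENSDARG00000004060, chromosome 11, 35759652 to 35763323), a repressor of CLOCK and BMAL and the most abundant gene of the list at 3 h, fell from 103, 112, 93.6 and 84.5 TPM to 25.5, 36.5, 16.1 and 24.6 TPM (log2 fold change -2.16, standard error 0.23, adjusted p = 2.2e-04). ciarta and cipcb, inhibitors of CLOCK and BMAL, fell from 2.87 ± 1.43 to 0.537 ± 0.179 TPM and from 3.3 ± 0.935 to 0.96 ± 0.061 TPM (SD, n = 4; adjusted p = 4.0e-04 and 7.5e-05). The output activator dbpa, the REV-ERB gene nr1d2b, rorab and cry1a had log2 fold changes of -2.0, -1.29, -1.50 and -0.78 and adjusted p of at most 0.0078. These 9 genes passed in every leave-one-out fit. The call of dbpa was lost on log2(TPM + 1) (limma adjusted p = 0.069). bhlhe41 was lower at an adjusted p of 0.016 (lost without Refed_8h replicate 4, adjusted p = 0.052), and cry2 at 0.029 (kept only without Refed_3h replicate 1, adjusted p of 0.050 to 0.080 in the other 7 leave-one-out fits). nr1d1 (REV-ERB alpha), which was at 33.5 ± 7.33 TPM in Fast, lay at 0.602, 2.02, 2.2 and 1.4 TPM at 3 h and 1.57, 1.08, 1.69 and 1.64 TPM at 8 h and did not pass (log2 fold change -0.29, adjusted p = 0.59). Both directions thus occurred within the REV-ERB, ROR and cryptochrome families. The list's median was -0.05, and 0.18 on library totals, a change of sign.

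**Figure D4:**
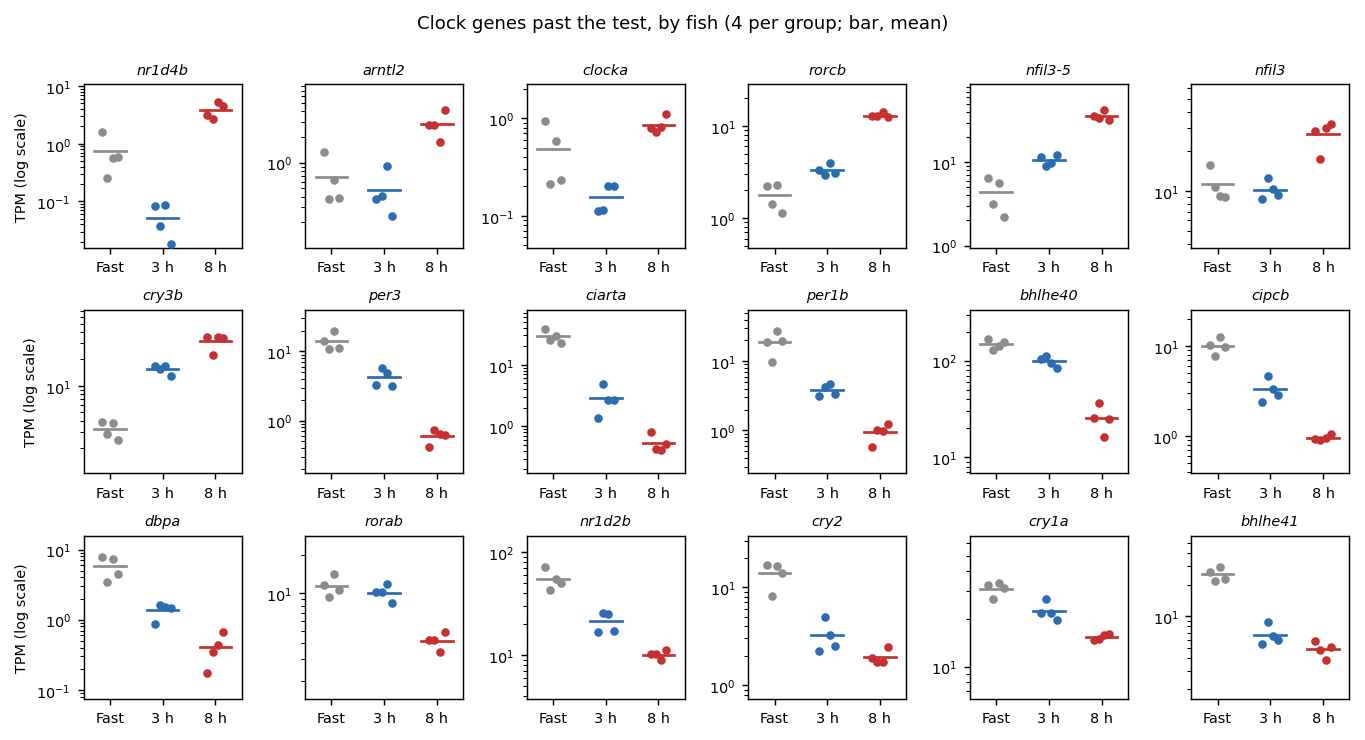
TPM per fish (log scale) of the 18 clock genes that passed the test between Refed_8h and Refed_3h, with the 4 Fast fish in grey, Refed_3h in blue and Refed_8h in red; bars are means, and a fish at 0 TPM is drawn at the lower edge of its panel. The 7 panels that rise come first; nfil3-5 goes from 4.36 to 10.7 and 36.3 TPM, and per3 in the second set falls from 14 to 4.23 and 0.60 TPM.

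Some self-degradation genes rose, and so did some markers of macrophages. Autophagy had 6 of 53 members higher (11.3%, against 3.06% of all tested genes) and 0 lower (median 0.30). ulk2 and ulk1a, kinases that start autophagy, rose from 1.16, 1.29, 1.57 and 1.1 TPM to 4.36, 2.91, 3.26 and 8.65 TPM (log2 fold change 1.63, standard error 0.33, adjusted p = 0.013) and from 2.54–3.49 to 7.95–18.2 TPM (log2 fold change 1.60, adjusted p = 0.014). nbr1a, a cargo receptor, rose from 3.77–5.09 to 8.79–15.2 TPM (log2 fold change 1.16, adjusted p = 4.0e-04). These 3 kept their call in every leave-one-out fit, whereas atg9a (adjusted p = 0.018, kept only without Refed_3h replicate 4 or Refed_8h replicates 2 or 3, adjusted p of 0.051 to 0.066 in the other 5 leave-one-out fits), map1lc3b (adjusted p = 0.024, kept only without Refed_3h replicate 1 or Refed_8h replicates 2 or 3, adjusted p of 0.057 to 0.076 in the other 5 leave-one-out fits) and nbr1b (adjusted p = 0.036, kept only without Refed_8h replicate 3, adjusted p of 0.060 to 0.10 in the other 7 leave-one-out fits) did not. The list had 3 higher genes without Refed_3h replicate 3, Refed_8h replicate 1 or Refed_8h replicate 4. Lysosomal proteases and V-ATPase had 6 of 53 higher, also 11.3%, and 0 lower (median 0.27). lgmn, legumain, rose from 50.4, 52, 42.6 and 43 TPM to 117, 82.4, 68 and 122 TPM (log2 fold change 0.78, standard error 0.16, adjusted p = 0.012), and the progranulin grna, which is also on the macrophage list, from 18.3–28.5 to 31.6–69.8 TPM (log2 fold change 0.89, adjusted p = 0.013). The cathepsins ctsd, ctsc, ctsh and ctss2.2 were higher by 0.66, 0.70, 0.71 and 0.72 on the log2 scale. The call of ctsc (adjusted p = 0.028) was kept only without Refed_3h replicate 4 or Refed_8h replicate 3, adjusted p of 0.054 to 0.087 in the other 6 leave-one-out fits, and those of ctsd (0.035), ctsh (0.036) and ctss2.2 (0.047) were kept only without Refed_8h replicate 3, with adjusted p of 0.056 to 0.10, 0.057 to 0.11 and 0.083 to 0.12 for ctsh, ctsd and ctss2.2 in the other fits. The list had 2 higher genes without Refed_3h replicates 1 or 3 or Refed_8h replicates 1 or 4. None of 52 proteasome genes rose in edgeR (6 were higher at an unadjusted p under 0.05 and 2 in DESeq2), and psme3, an activator subunit, was lower (log2 fold change -0.63, adjusted p = 0.029, kept only without Refed_3h replicates 3 or 4 or Refed_8h replicate 3, adjusted p of 0.062 to 0.081 in the other 5 leave-one-out fits).

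Macrophage markers moved with these lists. Of 20 tested, 8 rose (40.0%, against 3.06% of all tested genes), 0 fell and all 20 had a log2 fold change above 0 (median 0.77). The 21 markers summed to 2025, 2098, 1576 and 1530.0 TPM at 3 h and 3635, 2623, 2080.0 and 3532 TPM at 8 h, a ratio of 1.64 (exact permutation test, two-sided, p = 0.057, adjusted over 15 marker lists p = 0.17). Most of that sum was cd74a, the invariant chain of MHC class II, at 1248–1816 and 1569–2851 TPM. Of the defining markers, mpeg1.1 lay at 14.6–22.8 and 23.4–48.2 TPM without passing (adjusted p = 0.067), mpeg1.2 rose from 7.59–9.97 to 12.7–33.8 TPM (log2 fold change 1.02, adjusted p = 0.036, kept only without Refed_8h replicate 3, adjusted p of 0.064 to 0.097 in the other 7 leave-one-out fits) and the scavenger receptor marco from 6.36–12.7 to 12–28.4 TPM (log2 fold change 1.11, adjusted p = 0.033, kept only without Refed_3h replicate 1 or Refed_8h replicate 3, adjusted p of 0.066 to 0.090 in the other 6 leave-one-out fits). The progranulin grn1, also 1 of the 15 higher DEGs named in the plot of change and level, went from 6.22, 4.57, 7.08 and 1.72 TPM to 53, 10.9, 61.7 and 98 TPM (log2 fold change 3.26, adjusted p = 0.044, kept only without Refed_8h replicate 2, adjusted p of 0.080 to 0.11 in the other 7 leave-one-out fits). grn2 rose from 16.3–36.7 to 71.6–188 TPM (log2 fold change 1.57, adjusted p = 0.018, lost without Refed_3h replicate 4, adjusted p = 0.050). mpeg1.1, mpeg1.2, marco and grn2 were named after their values were seen. The number of macrophage markers that passed ran from 2 without Refed_3h replicate 4 to 8, and was 3 without Refed_3h replicate 2 or Refed_8h replicate 4. The part of these cells in the lysosomal and autophagy results was not tested.

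Some proliferation and antiviral genes were higher as well. Of 62 cell cycle and DNA replication genes 5 rose (kif11, kif23, tpx2, top2a and bub1, all acting in mitosis) and 0 fell, with 46 above 0 and a median of 0.40. Thus 8.06% of that list was higher, against 3.06% of all tested genes. top2a lay at 2.45, 2.35, 1.83 and 1.19 TPM at 3 h and 13.6, 4.89, 4.07 and 5.94 TPM at 8 h, Refed_8h replicate 1 being highest (log2 fold change 1.58, standard error 0.38, adjusted p = 0.031). tpx2 lay at 0.741–1.77 and 2.65–8.75 TPM (log2 fold change 1.58, adjusted p = 0.019, lost without Refed_3h replicates 2 or 4 or Refed_8h replicate 1, adjusted p of 0.054 to 0.055) and kif11 at 0.663–1.13 and 1.99–7.66 TPM (log2 fold change 1.80, adjusted p = 0.018, lost without Refed_3h replicates 2 or 4, adjusted p = 0.053). The call of top2a was kept only without Refed_8h replicates 2 or 3, adjusted p of 0.055 to 0.083 in the other 6 leave-one-out fits, that of kif23 (adjusted p = 0.048) kept only without Refed_8h replicate 3, adjusted p of 0.051 to 0.13 in the other 7 leave-one-out fits, and that of bub1 (adjusted p = 0.037) kept only without Refed_3h replicate 1 or Refed_8h replicates 3 or 4, adjusted p of 0.064 to 0.11 in the other 5 leave-one-out fits. The number that passed was 0 without Refed_3h replicate 4, 1 without Refed_3h replicate 2 or Refed_8h replicate 1, 2 without Refed_3h replicate 3 and 11 without Refed_8h replicate 3. Interferon response and antigen presentation had 3 of 71 higher, 0 lower and 57 above 0 (median 0.49), with 25 higher at an unadjusted p under 0.05. The 3 genes are 4.23% of the list, near the 3.06% of all tested genes that were higher. stat2, a signal transducer of type I interferon, rose from 8.66, 10.9, 9.15 and 9.29 TPM to 47.4, 49.5, 14.9 and 33.1 TPM (log2 fold change 1.68, standard error 0.31, adjusted p = 0.0081), Refed_8h replicate 3 lying well below the other 8 h fish. Without that fish 15 genes of the list passed, and without Refed_3h replicates 1, 2 or 3 or Refed_8h replicates 1, 2 or 4 only stat2 did. The RNA sensor dhx58 lay at 1.22–3.94 and 5.09–25.6 TPM (adjusted p = 0.031, kept only without Refed_3h replicate 4 or Refed_8h replicate 3, adjusted p of 0.064 to 0.081 in the other 6 leave-one-out fits) and mhc1uka, an MHC class I gene, at 35.1–59.8 and 89–118 TPM (adjusted p = 0.049, lost in all 8 leave-one-out fits, adjusted p of 0.054 to 0.12). The macrophage marker values above moved with both lists, and their part in these results was not tested. ifitm1, an interferon-induced membrane protein, went the other way, from 33.2, 23.1, 28.8 and 23.9 TPM to 11.7, 7.59, 8.0 and 11.5 TPM (log2 fold change -1.76, standard error 0.19, adjusted p = 3.0e-04).

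Of 38 growth hormone receptor, STAT and SOCS genes 3 rose (stat2, socs1a and lifrb) and 0 fell. Thus 7.89% of that list was higher, against 3.06% of all tested genes. socs1a, a brake on cytokine signalling, lay at 6.64–9.53 and 12.4–34 TPM (adjusted p = 0.019, lost without Refed_3h replicates 3 or 4 or Refed_8h replicates 1 or 4, adjusted p of 0.050 to 0.058). lifrb, a cytokine receptor, had an adjusted p of 0.049 (kept only without Refed_8h replicate 2, adjusted p of 0.069 to 0.13 in the other 7 leave-one-out fits). Genes listed as neutrophil markers went both ways, 9 of 12 lying above 0 and 3 below. nccrp1, the most abundant gene of that list, lay at 36.5–55.5 and 29.4–37.2 TPM (log2 fold change -0.55, adjusted p = 0.16). Whether nccrp1 came from neutrophils in this tissue was not tested. The marker that passed was mpx, a neutrophil peroxidase, at 0.517–0.989 and 1.69–2.42 TPM (adjusted p = 0.041, lost in all 8 leave-one-out fits, adjusted p of 0.058 to 0.10). cd79a, a B cell receptor subunit, lay at 0.269–1.06 and 2.37–5.79 TPM (adjusted p = 0.025, lost without Refed_3h replicates 2 or 3 or Refed_8h replicates 1 or 2, adjusted p of 0.055 to 0.070), and zap70, the most abundant lymphocyte marker, at 4.96–7.63 and 5.18–10.6 TPM (log2 fold change 0.20, adjusted p = 0.62). mpx and cd79a were named after their values were seen. The 17 markers of T, B and NK cells summed to 28–47.7 and 49.3–65.6 TPM (exact permutation p = 0.029, the smallest that 4 against 4 allow, adjusted p = 0.17). In CPM (counts scaled by library, without exon length) the sums overlapped, at 30.7–53.4 and 45.1–66.4. The exact permutation p was then 0.086 (adjusted p = 0.32).

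**Figure D5:**
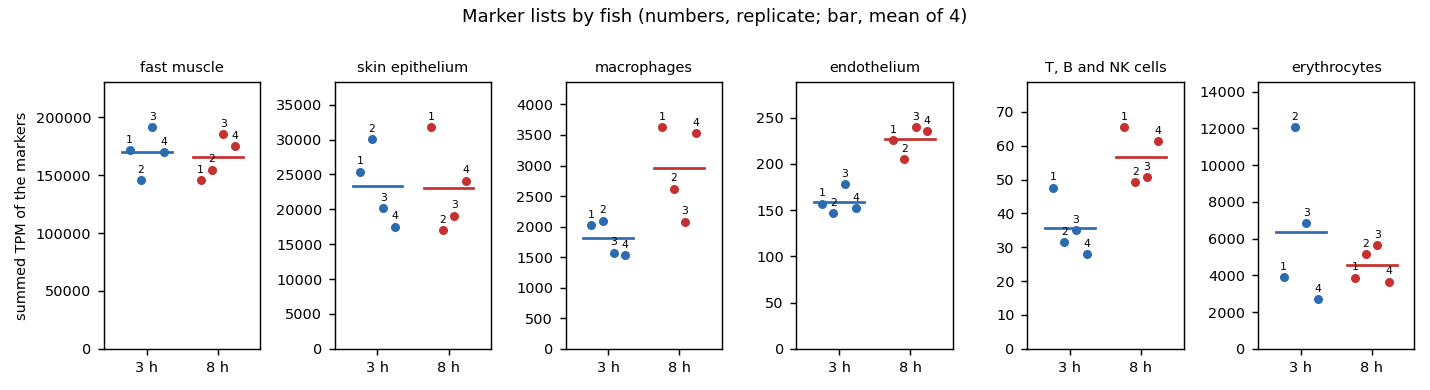
Summed TPM of 6 marker lists in each refed fish, for Refed_3h (blue) and Refed_8h (red); each point is a fish labelled with its replicate number and each bar the mean of 4, on a linear axis from 0. Macrophage markers lie at 1530.0–2098 TPM at 3 h and 2080.0–3635 TPM at 8 h and overlap by 1 fish of each group, and those of fast muscle and skin overlap too.

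The sum of endothelial markers was 147–178 TPM in Refed_3h and 205–240.3 TPM in Refed_8h (exact permutation p = 0.029, adjusted p = 0.17), yet 17 of the 29 markers lay below 0 on the TMM scale (median -0.10, changing sign to 0.10 on library totals). In all, 3 endothelial markers passed as higher (4 in DESeq2), 10.3% of the list against 3.06% of all tested genes. Among them was cldn5b, a tight junction protein of vessels, from 18.6–23.3 to 39–54.1 TPM (log2 fold change 0.89, adjusted p = 0.0086). rbp7a, a retinol binding protein, was among the largest increases, from 8.67, 8.1, 6.55 and 4.2 TPM to 73.2, 25.8, 17.7 and 32.7 TPM, with Refed_8h replicate 1 highest (log2 fold change 2.15, standard error 0.35, adjusted p = 0.0043). Some genes of the hypoxia and HIF list were lower. vegfaa and vegfab, vascular growth factors, fell from 11.6 ± 2.99 to 4.42 ± 0.994 TPM and from 35.5 ± 9.84 to 19.2 ± 2.37 TPM (SD, n = 4; adjusted p = 0.0015 and 0.0030), and epas1b (HIF-2 alpha) from 8.51–9.2 to 5.36–5.91 TPM (log2 fold change -0.92, adjusted p = 0.013). These 3 passed in all 8 leave-one-out fits. In all, 6 of 25 hypoxia and HIF genes fell and 1 rose, hif1aa (log2 fold change 1.21, adjusted p = 0.030, lost in all 8 leave-one-out fits, adjusted p of 0.051 to 0.085). These calls make up 28% of the list, against 6.41% of all tested genes. The list's median was -0.47, and -0.27 on library totals. The calls of the hydroxylase egln1b_1 (adjusted p = 0.022, kept only without Refed_3h replicates 1 or 2 or Refed_8h replicate 3, adjusted p of 0.050 to 0.070 in the other 5 leave-one-out fits) and of higd1a (adjusted p = 0.045, lost in all 8 leave-one-out fits, adjusted p of 0.053 to 0.13) were less firm, and the list had 3 lower genes without Refed_3h replicates 3 or 4 or Refed_8h replicates 1 or 4. Erythrocyte markers lay at 3889, 12090.0, 6823 and 2716 TPM at 3 h and 3660.0–5627 TPM at 8 h, and none passed in edgeR (6 lower at an unadjusted p under 0.05, 3 in DESeq2). All 14 tested lay below 0, with a median of -0.70, and the most abundant, hbba1_2, at 1041–4746 and 1585–2915 TPM. No marker of fibroblasts and tendon, bone and scale, neurons and glia, adipocytes, pigment cells, skin, or liver and gut passed in edgeR, with 6 higher and 6 lower at an unadjusted p under 0.05 over these 7 lists and 3 higher and 0 lower in DESeq2. Their most abundant members besides krt5 averaged 763 and 798 TPM for col1a1a, 583 and 560.1 for sparc, 279 and 287 for mbpa, 642 and 792 for cfd, 5.41 and 8.39 for tyrp1b, and 3.57 and 4.76 for apoc1 at 3 h and 8 h.

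Few sarcomere genes changed, 4.59% of those tested against 6.41% of all genes. lmod2b (ENSDARG00000045864, chromosome 4, 4115778 to 4119425), a leiomodin that nucleates actin filaments, rose from 2.03, 2.26, 2.25 and 1.7 TPM to 16.2, 18.4, 24.8 and 23.2 TPM (log2 fold change 3.10, standard error 0.26, adjusted p = 3.9e-05). tcap (ENSDARG00000007344, chromosome 3, 21240594 to 21242460), telethonin, which anchors titin at the Z-disc, fell from 456, 508, 399 and 482 TPM to 125, 214, 179 and 192 TPM (log2 fold change -1.61, standard error 0.26, adjusted p = 0.0042), and its Fast level was higher than both, at 804 ± 189 TPM (SD, n = 4). smtnl and myl2a were lower too (adjusted p = 0.0035 and 0.015), as was myoz2b (log2 fold change -1.06, adjusted p = 0.017, lost without Refed_3h replicate 3 or Refed_8h replicate 4, adjusted p of 0.051 to 0.061). The groups overlapped for myl2a, at 17.1–27.7 and 11.2–18.5 TPM. Its call was lost on library totals (edgeR adjusted p = 0.12) and on log2(TPM + 1) (limma adjusted p = 0.20). Thus 1 of 109 sarcomere genes rose and 4 fell, and 91 lay below 0 (median -0.24, -0.04 on library totals). Without Refed_8h replicate 2, 9 sarcomere genes were lower. Of calcium handling genes atp2a2b, a SERCA pump, fell (log2 fold change -1.27, adjusted p = 0.0033), cacng6a, a calcium channel subunit of muscle, rose (log2 fold change 0.97, adjusted p = 0.0094), and asph was lower at an adjusted p of 0.029 (lost without Refed_3h replicates 1, 2 or 4 or Refed_8h replicate 4, adjusted p of 0.052 to 0.083). six1b, a homeobox factor of the fast muscle programme, fell from 15.3, 12.5, 12 and 15.9 TPM to 6.46, 6.51, 8.29 and 8.07 TPM (log2 fold change -1.19, standard error 0.23, adjusted p = 0.0096). It was the only gene of 27 myogenic regulators that passed in edgeR (3.7%, against 6.41% of all tested genes). At an unadjusted p under 0.05, 2 myogenic regulators were higher and 9 lower, and in DESeq2 3 were lower. By sign, 17 of the 27 lay below 0 (median -0.25, and -0.04 on library totals). None of the 26 fast, 17 slow or 5 heart muscle markers tested passed in edgeR or DESeq2, with 2, 0 and 0 lower and 0, 0 and 1 higher at an unadjusted p under 0.05. By sign, 24 of 26 fast muscle markers and 14 of 17 slow muscle markers lay below 0 (medians -0.37 and -0.28, and -0.17 and -0.08 on library totals), and their part in the sarcomere values was not tested. The fast muscle and sarcomere lists share at least the gene with their lowest log2 fold change, -4.41, so they are not separate readings. The heart muscle marker tnni4a averaged 4.04 and 6.66 TPM. The slow muscle marker mb, myoglobin, ranged over 421–2054 and 319–1628 TPM.

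Glucocorticoid response genes had 3 of 18 lower (16.7%, against 3.36% of all tested genes) and 0 higher. Besides tat and per1b the third was sgk2b, a serum and glucocorticoid-regulated kinase, from 15.8, 8.37, 15.3 and 11.3 TPM to 3.41, 3.27, 1.93 and 1.76 TPM (log2 fold change -2.54, standard error 0.28, adjusted p = 3.1e-04), and all 3 calls were kept in every leave-one-out fit. Also among the 15 lower DEGs named in the plot of change and level was srd5a2a, a steroid 5-alpha-reductase, at 35.1, 56.4, 24.3 and 23.4 TPM and 23, 8.76, 8.96 and 10.9 TPM, with Refed_8h replicate 1 nearly as high as the lowest 3 h fish. Its call (log2 fold change -1.69, adjusted p = 0.026) was kept only without Refed_3h replicates 3 or 4 or Refed_8h replicate 1, adjusted p of 0.057 to 0.085 in the other 5 leave-one-out fits. Of 37 immediate early genes only ccn2a, a matricellular protein, passed, as higher (log2 fold change 0.72, adjusted p = 0.039, kept only without Refed_3h replicate 4 or Refed_8h replicate 1, adjusted p of 0.059 to 0.11 in the other 6 leave-one-out fits). That share, 2.7%, was near the 3.06% of all tested genes that were higher. By sign 28 of the 37 lay below 0 (median -0.25, and -0.06 on library totals). At an unadjusted p under 0.05, 2 immediate early genes were higher and 6 lower, and in DESeq2 2 were higher and 3 lower. No gene of the 35 NRF2 antioxidant genes or the 13 aryl hydrocarbon receptor and CYP1 genes passed in edgeR. At an unadjusted p under 0.05 these lists had 1 higher and 3 lower, and 0 higher and 1 lower, and in DESeq2 1 and 1 were lower. gsta.1, the most abundant of the second list, averaged 34.7 and 26.5 TPM. The ferritin gene fth1a, the most abundant NRF2 target, lay at 1770.0–3200.0 and 2560.0–3489 TPM.

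Gene length, a property the study examined, was described for the called genes. The median exon length was 2488 bases for the 284 DEGs higher at 8 h and 2378 bases for the 182 lower, against 2541 bases for all 16745 tested genes. The median span of the gene on the genome was 14.37 kb for the higher and 11.34 kb for the lower DEGs, against 16.96 kb for all. These are descriptions with no test, since genes are not replicates.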

How the data were processed

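Skeletal muscle between the anus and the caudal tail fin was profiled by mRNA sequencing of poly(A) RNA in 4 fish per group. Reads were mapped by the authors to GRCz11 in CLC Genomics Workbench, and the deposited table holds whole read counts, RPKM and TPM per gene and library, all made by the authors. The sources used here do not give the annotation release, the strand setting or the handling of reads that match several genes. Fold changes, p-values and FDR p-values of the authors' own comparisons stand in the same table and were not used. The deposited RPKM were used, with the counts, to recover each gene's exon length.

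Groups came from the sample titles. Of 25281 genes with deposited counts, filterByExpr kept 16745, which were scaled by TMM and tested in edgeR 4.0.16 under R 4.3.3 (robust quasi-likelihood F-test, 12 libraries in 1 fit, contrast Refed_8h against Refed_3h, biological coefficient of variation 30.6%). Standard errors were taken as the absolute log2 fold change over the root of F. Adjusted p-values are Benjamini-Hochberg values across the 16745 genes. P-values measure the spread between these fish, with the Fast fish in the same fit. The methods of the study describe a small tank and a single refeeding, so variation between tanks or repeated feedings is not covered. Levels per fish are the TPM deposited by the authors. No 2 refed libraries were alike within sampling noise (chi-square per gene 31.0 to 91.1 over 28 pairs).

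The rule for naming took 15 DEGs each way (largest change, mean TPM of 10 or more, groups not overlapping, no clone names), up to 6 members past the adjusted p of each of 48 process lists, every such member of the clock, Kelch-like and BTB, ASB, atrophy ligase and pyruvate dehydrogenase lists, the most abundant member of each marker list and of each list without calls, and paralogs of named genes. The comparison, its gene lists and this rule were chosen with earlier results of these data known, and asb2a.1 was added to the ASB list after its values were seen. A few called members of these lists are not reported by name here. Summed TPM of 15 marker lists, and their summed CPM, were compared by a two-sided exact permutation test (smallest p 0.029). Alternatives were DESeq2 1.42.0, RLE factors, library totals, no filter, the 8 refed libraries alone, the replicate number as a block, replicates 1 and 2 against 3 and 4 as a covariate or apart, limma 3.58.1 on log2(TPM + 1) and log2(TPM + 0.1) for genes averaging 0.5 TPM or more, no mitochondrial genes, and each refed library left out.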

Additional observations from a re-analysis of the deposited data

Results flagged for a closer look

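In 20 of 448 groups of 4 fish, 1 fish lay so far from the other 3 that the gap passed the 95% critical value of Dixon's test, which chance gives in about 1 of 20 groups. In Refed_3h, replicate 2 stood above the others for mat2ab (33.34 TPM against 5.416 to 7.398) and kbtbd3 (0.6466 TPM against 0.4481 to 0.4572), and replicate 3 for ppp1r3aa (27.1 TPM against 14.61 to 16.56). Refed_3h replicate 1 was highest for nccrp1 (55.52 TPM against 36.53 to 39.25) and had the lowest sum of slow muscle markers, 2528 TPM against 4605 to 4947.

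In Refed_8h, replicate 1 was highest for grn2 (188 TPM against 71.64 to 85.87), mrpl54 (30.43 against 25.43 to 25.98), atp2a2b (10.51 against 5.159 to 5.956) and srd5a2a (23.04 against 8.757 to 10.95), and lowest for smtnl (11.35 against 13.06 to 13.23). Replicate 2 was lowest for btbd11a (0.8209 TPM against 1.205 to 1.279), cry3b (21.91 against 34.59 to 35.51) and the sum of neuron and glia markers (636.3 against 659.7 to 663.8). Replicate 3 was highest for asb15a (8.829 TPM against 5.702 to 6.018), gpam (9.908 against 6.564 to 6.98) and rorcb (14.09 against 12.43 to 12.7), and lowest for marco (12.01 against 25.68 to 28.41). Replicate 4 was highest for pdpk1a (6.738 TPM against 4.395 to 4.524) and ulk1a (18.2 against 7.946 to 9.452), and for tyrp1b (11.88 against 7.005 to 7.552).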

How the results depend on the processing

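Counts moved with tool and scaling. DESeq2 gave 472 DEGs higher at 8 h (877 higher and 899 lower without the fold threshold). Library totals gave 480 higher and 97 lower DEGs (797 and 191 without it). limma gave 46 lower DEGs on log2(TPM + 1) and 80 on log2(TPM + 0.1), with 128 and 143 lower genes past the adjusted p. Within replicates 1 and 2 there were 39 higher and 24 lower genes, and within replicates 3 and 4 77 and 103. With 1 library left out there were 154 to 321 higher and 126 to 186 lower DEGs, and 228 to 519 higher and 231 to 442 lower genes past the adjusted p. DEGs higher moved by over 1.5 times without any 1 of Refed_3h replicates 1 to 4 (163, 168, 179 and 176) or Refed_8h replicates 1 and 4 (172 and 154). They numbered 249 and 321 without Refed_8h replicates 2 and 3, and all of these fits have 1 fish fewer. The cause of these shifts, and of those with tool and scaling, was not tested.

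Replicate numbers are shared by the groups but did not clearly pair the fish. Deviations correlated at -0.04 to 0.13 for same-numbered fish and -0.23 to 0.18 for others, 2 of 4 fish correlating best with their own number. With the replicate number as a block there were 309 higher and 190 lower DEGs. With replicates 1 and 2 against 3 and 4 as a covariate there were 349 and 211 (654 and 719 genes past the adjusted p).

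Of 185 called genes named here, 185 kept the call in DESeq2, 155 on library totals, 177 under the block, 125 of 184 on log2(TPM + 1) and 124 to 160 with 1 library left out, and none changed direction.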

Other observations

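The genes named here include pairs of neighbours on the genome, noticed after their values were seen. klhl38b ends 8898 bases before fbxo32 begins on chromosome 16 (GRCz11), and their log2 fold changes were 5.36 and 4.88. lmod2b ends 1144 bases before asb15b begins on chromosome 4, with log2 fold changes of 3.10 and 4.93. In Fast the members of the second pair stood at 8.08 ± 2.36 and 0.47 ± 0.357 TPM (SD, n = 4).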
